A study of Homo sapiens with 6 samples.

Results

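Transcripts of neuron-associated tubulin genes, of the tubulin polymerization promoting proteins TPPP and TPPP3 and of the microtubule-associated protein MAP2 were followed in the human cell line MDA-MB-231, derived from a breast cancer without hormone receptors or HER2 amplification. The 10 genes, selected on their differences between these arrays as well as on their function, were TUBB3, TUBB2A, TUBB2B, TUBB6, TUBB4B, TUBA1A, TUBA4A, TPPP, TPPP3 and MAP2. Every probe set that the platform's annotation assigns to exactly 1 of these symbols was taken, which gave 19 of 49293 probe sets and 9 of 18132 genes. TUBB2B had no probe set of its own. RNA was taken after 8 h in 5 µM SAHA, also called vorinostat, which blocks the zinc-dependent histone deacetylases, or after 8 h in DMSO alone. Each group had 3 arrays, and the question is which transcripts differ after the inhibitor.

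Microtubules are polymers of alpha- and beta-tubulin dimers, and vertebrates carry several genes for each subunit. TUBB3, TUBB2A, TUBB2B and TUBA1A are the isotypes for which developing neurons are best known, whereas TUBB4B, TUBB6 and TUBA4A are also found widely outside neurons. TPPP, best known from oligodendrocytes, promotes tubulin polymerization and bundling, TPPP3 is its relative, and MAP2 binds and stabilizes dendritic microtubules. The cytoplasmic deacetylase HDAC6, one of the enzymes that SAHA inhibits, removes acetyl groups from alpha-tubulin.

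Values are log2 expression from the RMA procedure, which ran from 2.33 to 14.33 on these arrays, with a lower quartile of 4.37. A difference is the mean of the SAHA arrays minus that of the DMSO arrays, with the moderated standard error from limma. The members were picked with differences between these same arrays known, so their differences are a description and carry no test. The level of one probe set says nothing about the level of another, because probes bind with different strength. Probe sets with names ending in _x_at or _s_at hold probes that also match similar transcripts and are called shared here. Those ending in _a_at match transcripts of 1 gene. Of the 19 probe sets, 10 were shared, and TUBB3, TUBB2A and TUBA1A were measured by shared probe sets only.

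With SAHA, TPPP was 17.4-fold and MAP2 13.9-fold higher in the fitted values of their brightest probe sets. MAP2's DMSO mean there, 3.57, lay under the lower quartile of the scale and was not clearly above background, so its fold and its rank depend on the floor of the scale. TPPP's DMSO mean, 4.84, lay little above that quartile. TUBB2A, TUBA1A and TUBB3 were 5.03-fold, 4.67-fold and 2.92-fold higher. TUBB4B was 1.32-fold higher, TUBB6 was 1.66-fold lower, and TUBA4A and TPPP3 differed by less than 0.1 log2 units. At an adjusted p of 0.05, limma's rule called 13 of the 19 probe sets higher and 2 lower, where 22.2% of all probe sets were called higher and 24.1% lower. The 3 SAHA values lay apart from the 3 DMSO values in 16 of the 19, a pattern that 54.4% of all probe sets had. Since 46.4% of all probe sets were called and the members were chosen for their values, nothing further is read from these counts. The same 15 probe sets were called, in the same directions, after centring on hybridization or poly-A spike-ins or on ribosomal protein genes. Centring shifts all probe sets of an array alike. It moved the median of all genes from -0.01 to 0.16 at most, and the smallest called member difference was 0.37. That the directions were kept therefore follows from the size of the differences.

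**Figure D1:**
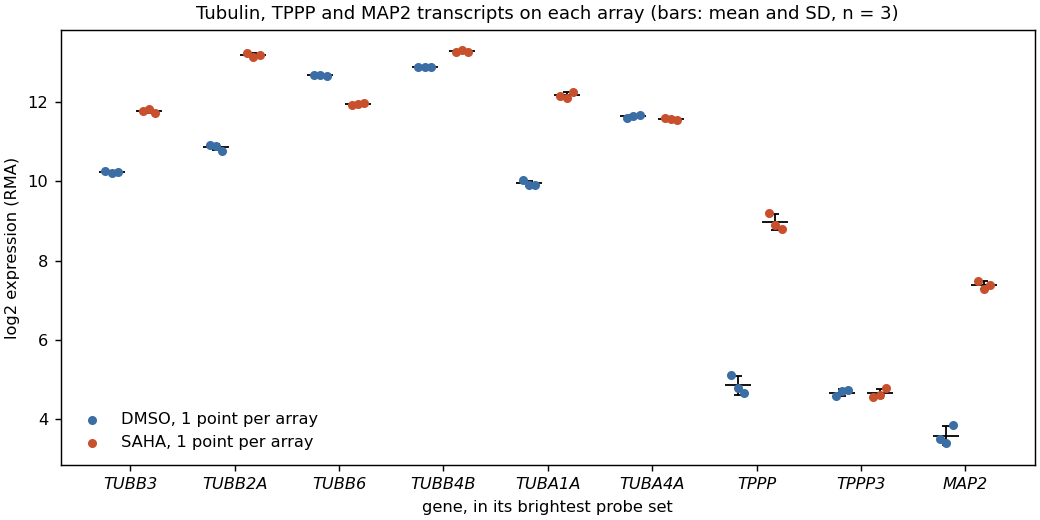
The log2 expression of each of the 9 measured genes on every array, in its brightest probe set; points are arrays, DMSO on the left and SAHA on the right of each gene, and bars give the mean and SD of 3 arrays. TPPP, from 4.84, and MAP2, from 3.57, move furthest, TUBB6 moves down, and levels of different genes are not comparable.

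In its brightest probe set TPPP stood at 5.11, 4.78 and 4.64 on the DMSO arrays and at 9.19, 8.90 and 8.80 on the SAHA arrays. The lowest SAHA value lay far above the highest DMSO value, and the difference was 4.12 ± 0.14 log2 units (SE, n = 3 per group). A second TPPP probe set read 3.48, 4.50 and 3.73 in DMSO and 6.98, 6.62 and 6.95 in SAHA. Its DMSO arrays were the most scattered of all member values, with an SD of 0.53, and the difference was 2.94 ± 0.24. Both TPPP probe sets end in plain _at, so neither is marked as shared. By size of the difference in its brightest probe set TPPP ranked 8 among all 18132 genes, counted from the largest increase. DMSO means were 4.84 there, little above the scale's lower quartile of 4.37, and 3.91 in the second probe set, under it. TPPP's fold and rank may thus also depend on the floor of the scale. The second probe set gave 7.7-fold, and with the mean of the probe sets the difference was 3.53 ± 0.13.

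TPPP3, a relative of TPPP, was not called. It stood at 4.57, 4.70 and 4.72 in DMSO and at 4.56, 4.60 and 4.78 in SAHA, in a single probe set. The groups overlapped and the difference was -0.02 ± 0.08. Its values were low on the scale in both groups.

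MAP2 was read by 3 probe sets, all of them specific to its transcripts. The brightest gave 3.48, 3.40 and 3.84 in DMSO and 7.47, 7.27 and 7.37 in SAHA, a difference of 3.80 ± 0.12. Another gave 3.32, 3.37 and 3.47 in DMSO against 6.83 to 7.05 in SAHA, a difference of 3.58 ± 0.08. The remaining one moved far less, from 4.78, 5.01 and 5.13 to 5.87, 5.96 and 6.04, a difference of 0.99 ± 0.10. In all 3 the groups were apart, but the size of the increase depended on the probe set, and with the mean of the probe sets it was 2.79 ± 0.08. By the brightest probe set MAP2 ranked 13 among all genes.

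Among beta-tubulins, TUBB2A showed the largest increase. Its brighter probe set stood at 10.92, 10.89 and 10.77 in DMSO and at 13.25, 13.14 and 13.19 in SAHA, a difference of 2.33 ± 0.07. The other gave 10.40, 10.18 and 10.23 against 12.70, 12.73 and 12.65, a difference of 2.42 ± 0.07. Both are shared, and TUBB2B, a gene of nearly the same sequence beside TUBB2A on chromosome 6, was not measured apart from it. One probe set that names TUBB2B together with the unrelated gene DXO read 4.77, 4.67 and 4.89 in DMSO and 4.66, 4.98 and 4.92 in SAHA. Those groups overlapped, with a difference of 0.07 ± 0.10, and how much of the TUBB2A signal comes from TUBB2B was not tested.

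TUBB3, the class III beta-tubulin used as a marker of neurons, stood at 10.27, 10.21 and 10.23 in DMSO and at 11.78, 11.82 and 11.74 in SAHA. The arrays of a group lay within 0.1 log2 units of each other, and the difference was 1.55 ± 0.06. It rests on a single shared probe set.

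TUBB4B, a broadly expressed beta-tubulin prominent in cilia, moved less. Its brightest probe set stood at 12.90, 12.88 and 12.90 in DMSO and at 13.28, 13.32 and 13.27 in SAHA, a difference of 0.40 ± 0.06. The next gave 0.37 ± 0.06. A dim probe set not marked as shared gave 5.86, 6.03 and 5.67 against 6.27, 6.51 and 6.81, a difference of 0.68 ± 0.14. All 3 had their groups apart.

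TUBB6 was the beta-tubulin among the members that was lower with SAHA. Its brightest probe set stood at 12.70, 12.68 and 12.66 in DMSO and at 11.93, 11.95 and 11.98 in SAHA, a difference of -0.73 ± 0.06. A second gave 12.01, 12.02 and 12.07 against 11.23, 11.21 and 11.20, a difference of -0.82 ± 0.06. Both are shared. The one TUBB6 probe set not marked as shared lay near the floor at 3.47 ± 0.05 with DMSO and 3.48 ± 0.11 with SAHA (SD, n = 3), with overlapping groups, so that without shared probe sets the gene was at 0.01 ± 0.07.

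The alpha-tubulins divided. TUBA1A stood at 10.03, 9.92 and 9.92 in DMSO and at 12.16, 12.11 and 12.27 in SAHA, a difference of 2.22 ± 0.07. Its other probe set gave 9.48, 9.41 and 9.41 against 11.65, 11.77 and 11.73, a difference of 2.28 ± 0.06. TUBA4A showed no such increase, at 11.60, 11.64 and 11.69 in DMSO and 11.60, 11.58 and 11.54 in SAHA, a difference of -0.07 ± 0.06 with groups barely apart. Its probe set not marked as shared gave -0.02 ± 0.06, with overlapping groups.

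Further probe sets name TUBA1A together with TUBA1B, a widely expressed isotype of nearly the same sequence, and these did not follow TUBA1A. One read 13.44, 13.37 and 13.42 in DMSO and 13.26, 13.31 and 13.31 in SAHA, a difference of -0.12 ± 0.06 (limma's adjusted p = 0.138 over probe sets). The other gave -0.09 ± 0.06 (limma's adjusted p = 0.299). Both lay near the top of the scale. The TUBA1A increase is therefore seen in the probe sets that name TUBA1A alone, and not in those that it shares by name with TUBA1B.

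**Figure D2:**
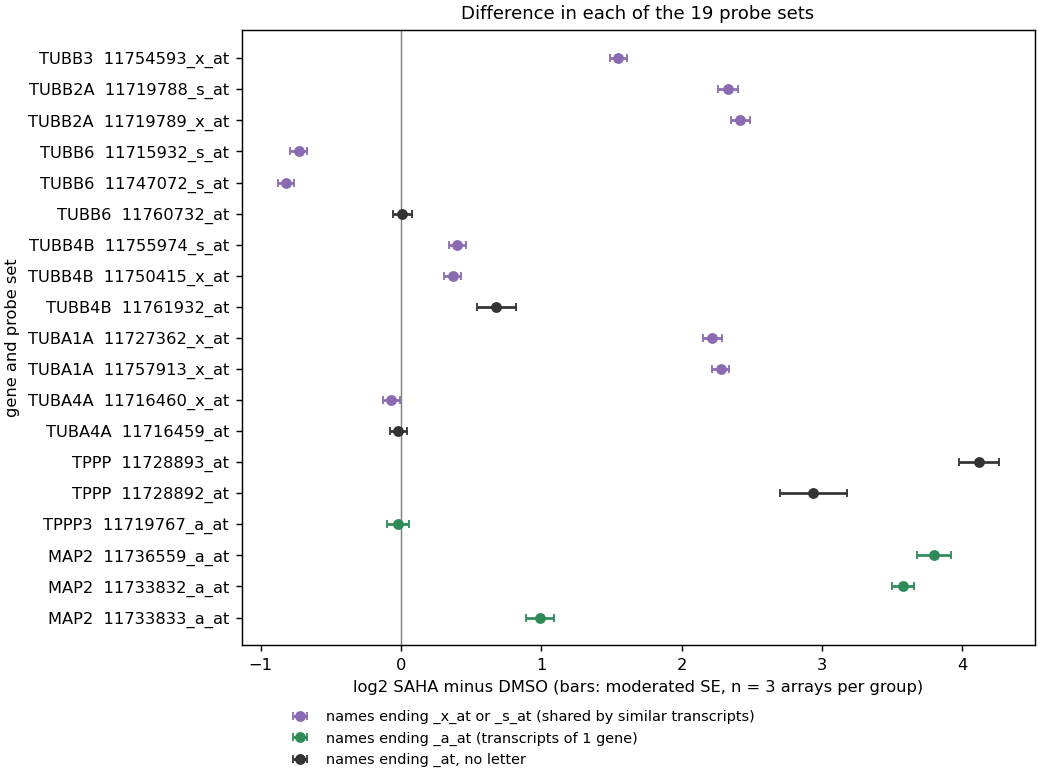
The log2 difference between SAHA and DMSO arrays in each of the 19 probe sets, with the moderated standard error (n = 3 arrays per group) and a colour for the kind of probe set. Differences run from -0.82 in TUBB6 to 4.12 in TPPP, and probe sets of 1 gene lie close together except in MAP2, TPPP and TUBB6.

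For the 4 members with the largest increases, all RefSeq promoter windows at hand are printed. They show how far these genes differ in GC boxes, the sites of Sp1-family factors, within the windows. Each is the 250 bases before the start of a RefSeq transcript in GRCh38.p14, read 5′ to 3′ on the gene's strand, with GC boxes (GGGCGG or, on the other strand, CCGCCC, overlaps counted) in capitals.
TPPP, chr5:693353-693602, - strand: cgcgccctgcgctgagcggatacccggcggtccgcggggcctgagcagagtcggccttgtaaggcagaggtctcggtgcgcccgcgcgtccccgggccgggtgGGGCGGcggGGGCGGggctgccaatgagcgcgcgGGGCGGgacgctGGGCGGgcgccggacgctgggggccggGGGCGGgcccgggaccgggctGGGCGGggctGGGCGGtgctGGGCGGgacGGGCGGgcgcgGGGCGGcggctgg
MAP2, chr2:209579082-209579331, + strand: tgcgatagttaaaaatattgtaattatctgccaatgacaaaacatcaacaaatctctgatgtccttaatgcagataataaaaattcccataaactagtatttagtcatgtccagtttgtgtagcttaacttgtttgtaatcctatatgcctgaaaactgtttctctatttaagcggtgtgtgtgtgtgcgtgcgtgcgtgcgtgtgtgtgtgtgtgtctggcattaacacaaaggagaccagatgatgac
MAP2, chr2:209579357-209579606, + strand: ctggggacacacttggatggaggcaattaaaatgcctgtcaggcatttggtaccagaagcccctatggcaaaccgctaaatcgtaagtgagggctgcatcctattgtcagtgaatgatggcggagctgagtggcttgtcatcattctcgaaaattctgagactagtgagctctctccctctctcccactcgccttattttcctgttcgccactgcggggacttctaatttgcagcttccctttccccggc
MAP2, chr2:209661246-209661495, + strand: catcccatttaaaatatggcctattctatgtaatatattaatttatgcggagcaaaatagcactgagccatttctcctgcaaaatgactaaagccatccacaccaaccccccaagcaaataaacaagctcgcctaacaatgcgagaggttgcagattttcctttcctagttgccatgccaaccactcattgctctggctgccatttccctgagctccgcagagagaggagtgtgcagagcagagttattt
TUBB2A, chr6:3157545-3157794, - strand: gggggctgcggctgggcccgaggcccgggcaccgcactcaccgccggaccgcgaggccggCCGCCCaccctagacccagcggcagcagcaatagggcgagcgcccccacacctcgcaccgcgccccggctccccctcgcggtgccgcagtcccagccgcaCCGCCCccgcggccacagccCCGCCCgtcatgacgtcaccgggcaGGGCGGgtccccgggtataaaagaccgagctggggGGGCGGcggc
TUBA1A, chr12:49189081-49189330, - strand: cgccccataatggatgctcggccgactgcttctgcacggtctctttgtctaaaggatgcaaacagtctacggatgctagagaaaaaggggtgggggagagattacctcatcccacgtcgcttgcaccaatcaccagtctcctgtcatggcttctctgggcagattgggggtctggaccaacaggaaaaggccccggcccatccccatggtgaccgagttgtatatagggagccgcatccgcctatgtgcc

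RefSeq windows were at hand for 9 of the 10 genes, all but TPPP3, in 13 windows. They need not cover every start of a gene. In RefSeq the upstream ends of TPPP (base 700727), MAP2 (209424047) and TUBA4A (219254740) lie outside all their windows. GC boxes further upstream in these genes were therefore not counted. TPPP's window held 10 GC boxes at a GC content of 84.0%, and 0.151% of all 35116 promoter windows hold 10 or more. TUBB2A's held 5, a number reached by 4.15% of all windows, with the letters TATAAA starting 30 bases before the start and a cyclic AMP response element (TGACGTCA). TATAAA (or TTTATA) occurs in 10.7% of all windows and TGACGTCA in 1.65%. At least 1 GC box occurs in 42.6% of all windows. The windows of genes that were higher were not alike. TUBA1A's held 0 GC boxes and 2 CCAAT boxes (CCAAT or ATTGG, at least 1 of which 32.0% of all windows hold), and none of the 3 MAP2 windows held a GC box. Of the TUBB3 windows, one held 3 and the other 0. TUBB6, which was lower, held 6 in one window and 0 in the other, and TUBA4A, which barely differed, held 4. These are matches of letters, and binding was not measured.

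Most other genes of the tubulin family were not called. The members were chosen for their differences, so a contrast between them and the rest of the family is set by that choice. Of 15 other tubulin genes listed, all but TUBA1B and TUBA8 were measured by a probe set naming them alone. Of these 13, 3 were called higher and 1 lower (limma, adjusted over all 18132 genes), where 24.6% of all genes were called higher and 23.8% lower. Their median difference was -0.05, against -0.01 over all genes. TUBAL3, an alpha-tubulin-like gene, rose by 1.11 ± 0.12 (limma's adjusted p = 0.000148), from 4.65 ± 0.19 to 5.76 ± 0.19 (SD, n = 3). Delta-tubulin, TUBD1, of the centriole rose by 0.56 ± 0.11 and the gamma-tubulin TUBG2 by 0.38 ± 0.07. Both values are from shared probe sets, and a probe set specific to each gene gave 0.61 ± 0.13 and 0.79 ± 0.07. With the ACTB 3′ to 5′ difference, given with the array controls, as a covariate, neither call of the shared probe sets passed. TUBD1 was then at the lower value of 0.22 ± 0.13 and TUBG2 at a like value with a larger error, 0.36 ± 0.12.

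TUBB, the main beta-tubulin of dividing cells, fell by 0.23 ± 0.05 (limma's adjusted p = 0.00794). The other 5 TUBB probe sets, all shared, gave -0.24 to -0.58, each called lower over all probe sets. In the brightest one, the call did not pass after centring on ribosomal protein genes (-0.07) or on poly-A spike-ins (-0.06), or with the ACTB covariate (-0.26 ± 0.10). TUBA1C, a close relative of TUBA1A, was at -0.07 ± 0.06 in its brightest and -0.21 ± 0.06 in its other probe set, of which the latter was called lower. TUBG1, TUBB4A, TUBA3C, TUBA3D, TUBA3E, TUBB1, TUBB8 and TUBE1 lay between -0.27 and 0.01 and did not pass. Of these, TUBB8 was called lower without SAHA replicate 1 (-0.47), and TUBG1 higher after centring on ribosomal protein genes (0.17).

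**Figure D3:**
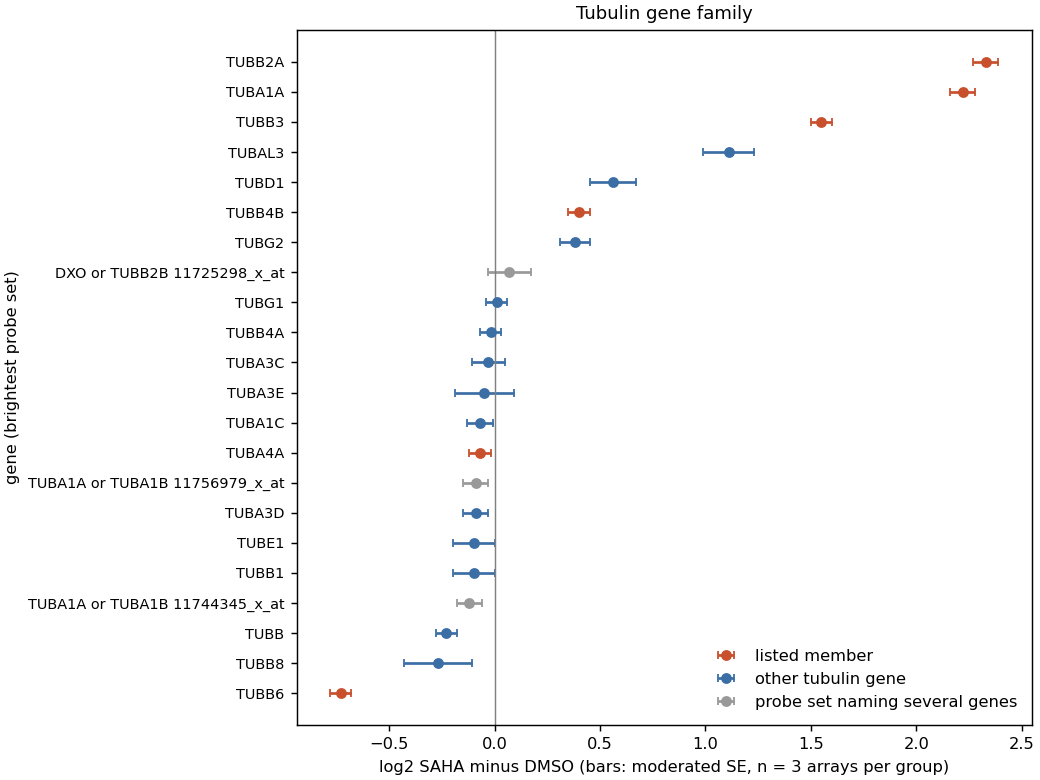
The log2 difference between SAHA and DMSO arrays for each measured tubulin gene in its brightest probe set, with the moderated standard error (n = 3 arrays per group); red points are members, blue points other tubulins, and grey points probe sets that name several genes. TUBB2A, TUBA1A and TUBB3 stand at 1.55 or more, TUBB6 is lowest at -0.73, and probe sets naming TUBA1A and TUBB2B with other genes lie near 0.

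Other microtubule-associated proteins moved both ways. Of 40 measured, 14 were called higher and 10 lower, with a median of 0.07. For this and each later list, the share over all genes was 24.6% higher and 23.8% lower. With arrays centred on poly-A spike-ins, 19 were higher and 3 lower, against 5829 and 2556 of all 18132 genes. EML1, of the echinoderm microtubule-associated family, rose by 2.04 ± 0.11 (limma's adjusted p = 3.56e-06), and its other 4 probe sets gave 1.59 to 2.35. MAP1A, a MAP of mature neurons, rose by 1.61 ± 0.06 (limma's adjusted p = 8.66e-07), and by 0.90 with the mean of its probe sets. CLIP2 rose 2.82-fold (limma's adjusted p = 4.76e-05), while its relative CLIP1, a tracker of growing plus ends, fell by 1.12 ± 0.07 (limma's adjusted p = 8.36e-06).

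Of 19 genes listed as destabilizing or severing microtubules, 5 were called higher and 3 lower, with a median of 0.02. Centred on poly-A spike-ins, 7 were higher and 1 lower. The list also held CRMP1 and DPYSL2 to DPYSL5, which belong to neither kind. Of these, DPYSL2 was among the 5 called higher, at 0.85 ± 0.06. The largest fall was that of fidgetin, FIGN, at -1.24 ± 0.13 (limma's adjusted p = 0.000118). Its relative FIGNL1 rose by 1.09 ± 0.06 and the severing enzyme spastin, SPAST, by 0.87 ± 0.06 (limma's adjusted p = 1.44e-05).

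Genes of tubulin folding moved both ways. Of 24 measured, 10 were called lower and 6 higher, with a median of -0.12, against 3 lower and 7 higher with arrays centred on poly-A spike-ins (median 0.04). CCT6A, of the chaperonin that folds tubulin and actin, fell by 0.66 ± 0.06, and PFDN2, of the prefoldin complex that delivers tubulin to it, fell by 0.60 ± 0.05 (limma's adjusted p = 3.7e-05). The tubulin cofactor TBCC rose by 0.68 ± 0.06.

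Of 29 enzymes that modify tubulin, 11 were called higher and 2 lower, with a median of 0.01. HDAC6 itself stood at 7.76 ± 0.11 with DMSO and at 7.87 ± 0.05 with SAHA, a difference of 0.11 ± 0.07 (limma's adjusted p = 0.248), and was called higher in that probe set when arrays were centred on ribosomal protein genes (0.27). Of its 6 other probe sets, a shared one was called higher over all probe sets, at 0.21 ± 0.07 (limma's adjusted p = 0.0483), and the rest lay between -0.12 and 0.07 and were not called. VASH2, which trims the terminal tyrosine of alpha-tubulin, rose by 1.80 ± 0.07 (limma's adjusted p = 6.33e-07), though by 0.66 with the mean of its probe sets. That probe set is shared, and its DMSO mean, 4.0, lay under the lower quartile of 4.37, so the size depends on the floor of the scale. Another VASH2 probe set gave 1.18 ± 0.16, and the rest gave 0.06 to 0.17 and were not called. MATCAP1, another such enzyme, rose by 1.37 ± 0.10, and by 0.48 ± 0.08 in its second brightest probe set. TTLL1, of a polyglutamylase, rose by 1.14 ± 0.13, and TPGS1, a subunit of the same enzyme, fell by 0.60 ± 0.13 (limma's adjusted p = 0.00642).

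Of 19 genes of microtubule nucleation, 10 were called lower and 4 higher, with a median of -0.19, against 6 lower and 5 higher with arrays centred on poly-A spike-ins (median -0.03). TUBGCP3, of the gamma-tubulin ring complex, fell by 1.36 ± 0.09 and pericentrin, PCNT, by 1.24 ± 0.07 (limma's adjusted p = 3.6e-06). HAUS3, of the augmin complex, rose by 1.22 ± 0.07 (limma's adjusted p = 4.85e-06).

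Most neuronal markers other than the members did not pass the test, and neither did 9368 of all 18132 genes. Of 20 measured, 4 were called higher and 1 lower, where 24.6% of all genes were called higher and 23.8% lower. The median of the list was 0.06. With arrays centred on poly-A spike-ins, 8 were higher and 0 lower. The mean log2 value over the list was 5.13 to 5.22 on DMSO and 5.41 to 5.42 on SAHA arrays. That mean is weighted to the few genes with large differences, named next, as the median difference was 0.06. RBFOX3, the neuronal nuclear antigen, rose by 1.80 ± 0.10 (limma's adjusted p = 4.07e-06), from 5.03 ± 0.04 to 6.83 ± 0.21, and by 2.10 ± 0.08 in a probe set specific to the gene, but its second brightest probe set gave 0.13 ± 0.09 and was not called. The neuronal enolase ENO2 rose by 1.13 ± 0.05, and tau, MAPT, rose by 1.08 ± 0.07 (limma's adjusted p = 9.56e-06). The neurofilament gene NEFM was at -0.25 ± 0.09 (limma's adjusted p = 0.0456), a call lost in 12 other settings. SYP, also called higher, rose by 0.33 ± 0.06 (limma's adjusted p = 0.00151). Among markers that did not pass were NEFL at 3.69 and 3.76, ELAVL4 at 3.87 and 3.83 and DCX at 4.29 and 4.21 in DMSO and SAHA. These lay under the lower quartile of 4.37, so whether they were expressed at all cannot be read. Others that did not pass lay higher, among them GAP43 at 7.5 and 7.55, SNAP25 at 6.18 and 6.1 and NCAM1 at 6.05 and 6.08. SYP and these markers were named after their values were seen.

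**Figure D4:**
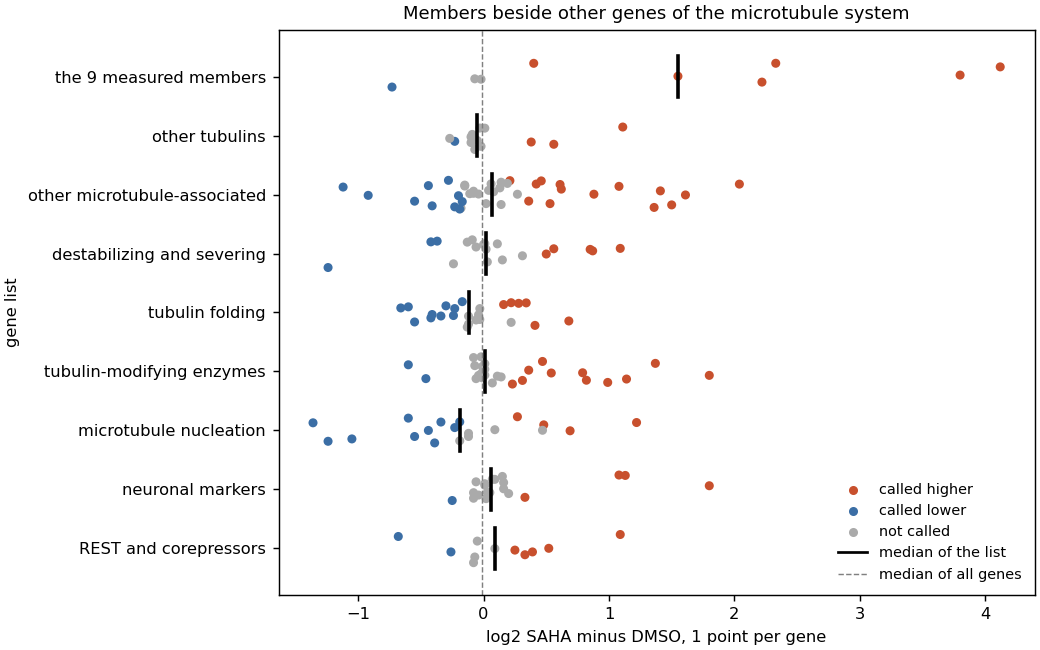
The log2 difference between SAHA and DMSO of every gene in the lists, 1 point per gene and 1 row per list; red points were called higher, blue lower and grey not called (limma, adjusted p of 0.05), short lines are list medians and the dashed line is the median of all genes. The members have a median of 1.55, while medians of the other lists lie between -0.19 and 0.09; the members were chosen with these values known.

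The genes whose pattern over the 6 arrays was most like that of TPPP were SCG2, NEDD9 and ID2, at Euclidean distances of 0.57, 0.61 and 0.64 log2 units after each gene's DMSO mean was subtracted. For TUBB3 they were P4HA2, LIPA and IDH1, at 0.08, 0.08 and 0.09. With only 2 conditions, this likeness is mostly one of the size of the difference.

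As to the arrays as a whole, correlations across probe sets were 0.997 to 0.998 within groups and 0.968 to 0.970 between them. CDKN1A, the usual marker gene of deacetylase inhibition, rose by 1.91 ± 0.05 (limma's adjusted p = 2.08e-07). Of genes known to be high in this line, 8 ran on DMSO arrays from 6.37 ± 0.15 (S100A4) to 13.96 ± 0.01 (vimentin, VIM), with the other 6 between 11.98 and 13.56. Of genes known to be low in it, 6 ran from 3.29 ± 0.11 (PGR) to 7.63 ± 0.15 (ERBB2), with GATA3 at 6.67 ± 0.08 and ESR1 at 5.98 ± 0.06. These probe-set levels cannot be compared with each other. The 3′ minus 5′ difference of the ACTB control, a measure of RNA integrity and amplification, was 0.61 ± 0.06 with SAHA against 0.89 ± 0.16 with DMSO (SD, n = 3). The two-sided exact permutation test gave p = 0.1, which is as low as 3 against 3 arrays can go, and 0.2 adjusted over 4 control measures. Its groups lay apart, so for transcripts that differed it cannot be told apart from the treatment. The GAPDH control's 3′ minus 5′ difference went the other way, at 0.06 ± 0.02 with SAHA against 0.03 ± 0.02 with DMSO. Its groups lay apart too, with the same p in the same test, but differed by only 0.03. With the ACTB difference as a covariate, 14 of the 19 member probe sets were called, 12 higher and 2 lower, and 6537 of all 18132 genes. Since the members were chosen for their differences, nothing further is read from this count. In bulk RNA, a change in all cells and a change in some of them cannot be told apart. The labels do not say that replicates were separate cultures, so the errors measure only the spread between these samples, and 3 arrays per group limit the precision.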

How the data were processed

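Biotin-labelled cRNA of 3 DMSO and 3 SAHA samples was made from total RNA with an Affymetrix 3′ IVT kit, per the labels' protocols. The deposited values are log2 expression per probe set, and RMA (background correction, quantile normalization, median polish) is named in the submitters' processing notes, with software and version not given in the sources used here. Once sorted, no column deviated from the columns' mean by over 0.0936, so a shift of most transcripts one way cannot be read. Of 49395 probe sets in it, 102 were controls, and 44988 named 1 gene, 1832 several and 2473 none in the platform's annotation. Symbols were compared through Entrez identifiers with RefSeq (GRCh38.p14), where 27 probe sets found no match and 0 symbols differed.

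Differences were fitted with limma 3.58.1 in R 4.3.3 (lmFit, eBayes, no covariate, two-sided, Benjamini-Hochberg) once over the 49293 probe sets other than controls and once over 18132 genes, each gene by its probe set with the highest mean. On data simulated with the gene fit's levels and 50 genes per fold size among 18132, the fit called 14% of those changed 1.2-fold. It called 64% of those changed 1.5-fold, 88% of those changed 2-fold and 100% of those changed 4-fold, and made 8 calls among unchanged genes. Far fewer genes were changed there than the 8764 called in these data. The adjusted p is thus stricter in the simulation, and its rates do not carry over to this fit. In each list the 3 called genes with the largest difference and the called gene furthest against the majority were named, with all other tubulins, HDAC6 and CDKN1A. The members and lists were chosen with earlier results of these data known. Array controls were compared by exact permutation. Alternatives were other scalings, moderation, weights, filters, probe set choices, the replicate number as a block, the ACTB difference as a covariate and leaving out each array. Figures were drawn with matplotlib 3.10.9.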

Additional observations from a re-analysis of the deposited data

How the results depend on the processing

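Over the 19 member probe sets and 16 to 18 alternatives each, every difference called kept its direction and its call except that of the dim TUBB4B probe set, which with the ACTB difference as a covariate was 0.80 ± 0.26 and not called. The count of 15 called became 9 of 11 with a mean log2 filter at 7 and 6 of 9 without shared probe sets, since fewer were tested. Over all genes, 7025 of 8605 and 7753 of 16701 were called with these settings. In each fit without 1 array, 15 member probe sets were called. At the gene level TUBB6 reversed to 0.01 without shared probe sets, because only its dim probe set was left, and SIN3B (-0.02) and ERBB2 (0.21, against -0.47 ± 0.09) reversed in their second brightest probe sets. The ACTB covariate lowered calls over all microtubule lists from 79 to 51 of 144 genes, and over all genes from 8764 to 6537 of 18132. The cause was not tested. Centring on ribosomal protein genes or poly-A spike-ins moved the median of all genes to 0.15 and 0.16. Calls were then 6971 higher and 3145 lower, and 5829 and 2556, against 4457 and 4307. The labels do not say whether same-numbered arrays belong together. Deviations from the group means correlated at -0.097 to -0.035 between same-numbered DMSO and SAHA arrays, and at -0.015 to 0.086 between the others. Such deviations cancel out within a group of 3 arrays, so these values cannot settle whether the arrays were paired. With the replicate block 15 member probe sets and 8291 of 18132 genes were called, against 15 and 8764.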

Other observations

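Transcripts of REST, the repressor that keeps neuronal genes silent in other cells, and of its corepressors moved both ways. Of 11 measured, 5 were called higher and 2 lower (limma, adjusted over all 18132 genes), where 24.6% of all genes were called higher and 23.8% lower. The median of the list was 0.09. Centred on poly-A spike-ins, 5 were higher and 1 lower. SIN3B, a scaffold of a deacetylase complex, rose by 1.09 ± 0.09 (limma's adjusted p = 3.06e-05) in its brightest probe set, but by 0.50 ± 0.05 with the mean of its 6 probe sets, and its second brightest, at -0.02 ± 0.06, was not called. RCOR2, of the CoREST family, rose by 0.52 ± 0.09 and the phosphatase CTDSP1 fell by 0.68 ± 0.07 (limma's adjusted p = 8.95e-05). REST itself, named after its values were seen, was at -0.26 ± 0.09 (limma's adjusted p = 0.0466), a call lost in 10 other settings. It was at -0.10 and -0.09 with arrays centred on ribosomal protein genes and poly-A spike-ins, and at -0.18 to -0.27, not called, without DMSO replicate 2 or 3 or any 1 SAHA replicate.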
